A study of Mus musculus with 32 samples.

Results

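The 6 Ms4a genes Ms4a4a, Ms4a4c, Ms4a6b, Ms4a6c, Ms4a6d and Ms4a7 were examined in microglia of rTg4510 mice, a model of tauopathy, and of wild type (WT) mice. They were listed by name with earlier results of these data known, and other measured genes of the family are given separately. All 6 were among the 18588 genes of the table. The rTg4510 line carries 2 transgenes: a transactivator driven by the CaMKIIα promoter switches on a mutant human 4-repeat tau, and the cells meant to make it are the neurons of the forebrain. The WT group were female littermates carrying neither transgene (strain 129/FVB F1), and the rTg4510 mice were female too. Microglia had been isolated with CD11b magnetic beads from pooled forebrains at 2, 4, 6 and 8 months of age, and each library therefore stands for a pool of animals rather than for one mouse. Of 32 libraries, the 28 that passed the quality control of the study were used, so that each genotype had 4 libraries at 2 and 6 months and 3 at 4 and 8 months.

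Ms4a genes encode small proteins that cross the cell membrane several times, and most of them lie in one gene cluster. The best known relatives are Ms4a1, which encodes the B cell antigen CD20, and Ms4a2, a signalling chain of the mast cell IgE receptor. In brain and blood, members of the Ms4a4, Ms4a6 and Ms4a7 groups are expressed by microglia and other macrophages. Human genes of this cluster have been linked to the risk of Alzheimer's disease and to the level of soluble TREM2, a lipid-sensing receptor of microglia.

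In the mouse genome (GRCm38.p6, RefSeq) the 6 genes lie on chromosome 19 within one stretch. In the order of their position they are Ms4a7 (chr19:11321039-11336146), Ms4a4a (chr19:11375488-11392915), Ms4a4c (chr19:11404717-11427246), Ms4a6c (chr19:11469353-11487182), Ms4a6b (chr19:11518559-11530403) and Ms4a6d (chr19:11586606-11604804). Ms4a7 is read from the minus strand, and Ms4a4a, Ms4a4c, Ms4a6c and Ms4a6b are read from the plus strand. Ms4a4d, another gene of the cluster, lies between Ms4a6b and Ms4a6d.

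The values are log2 gene signals, which the authors scaled so that every library has the same median (5.63). A difference of 1 is therefore a 2-fold difference. The signals are not divided by gene length, so levels were mainly compared between libraries. Ranks of a mean signal among all genes and sums over a list do set genes beside each other, and gene length can affect them. The study's methods state 1 approximate depth for all samples, and no totals per library come with the table, so depth could not be compared between libraries. Of 13 microglia markers, none was near the lowest values of a library in any group. For example, the mean signal of Tmem119 was 10.73 to 11.81 and that of P2ry12 was 10.14 to 10.98 over the 8 groups. Tmem119 was lower in rTg4510, with 10.73 beside 11.45 in WT at 8 months. The border macrophage and monocyte markers listed below were not near the lowest values either, so purity cannot be read from this. The 4 libraries left out by the study (WT and rTg4510 replicate 3 at 4 months, WT and rTg4510 replicate 4 at 8 months) entered only the values given for all 32 libraries, and their values are described in the closing section. Each library is a bulk measurement, in which fewer cells expressing a gene and less RNA per cell cannot be told apart.

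Between the genotypes, 3 members moved together and the other 3 did not. Ms4a4c, Ms4a6c and Ms4a6d were level in both genotypes at 2 months and were higher in rTg4510 microglia at 4, 6 and 8 months. Ms4a6b, Ms4a7 and Ms4a4a passed the test at none of the 4 ages. Differentially expressed genes (DEGs) were those with a Benjamini-Hochberg false discovery rate (FDR) under 0.05 and a change above 1.5 fold in limma. By this rule the number of members called was 0 of 6 at 2 months and 2 of 6 at each later age, namely Ms4a4c and Ms4a6c. Of all genes, 1.98%, 13.8%, 19.8% and 15.9% were called at the 4 ages in turn, and 9.47%, 11.3% and 10.5% were higher DEGs at 4, 6 and 8 months. At 2 months, 1 member had an unadjusted p under 0.05, and limma with moderated variances called 0 as well. By FDR alone, 3 members passed at 4, 6 and 8 months, beside 23.2%, 34.1% and 25.7% of all genes, and the third gene was Ms4a6d. The share of members called lies above these backgrounds at the later ages but rests on 2 genes of 6, and the genes are described one by one.

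**Figure D1:**
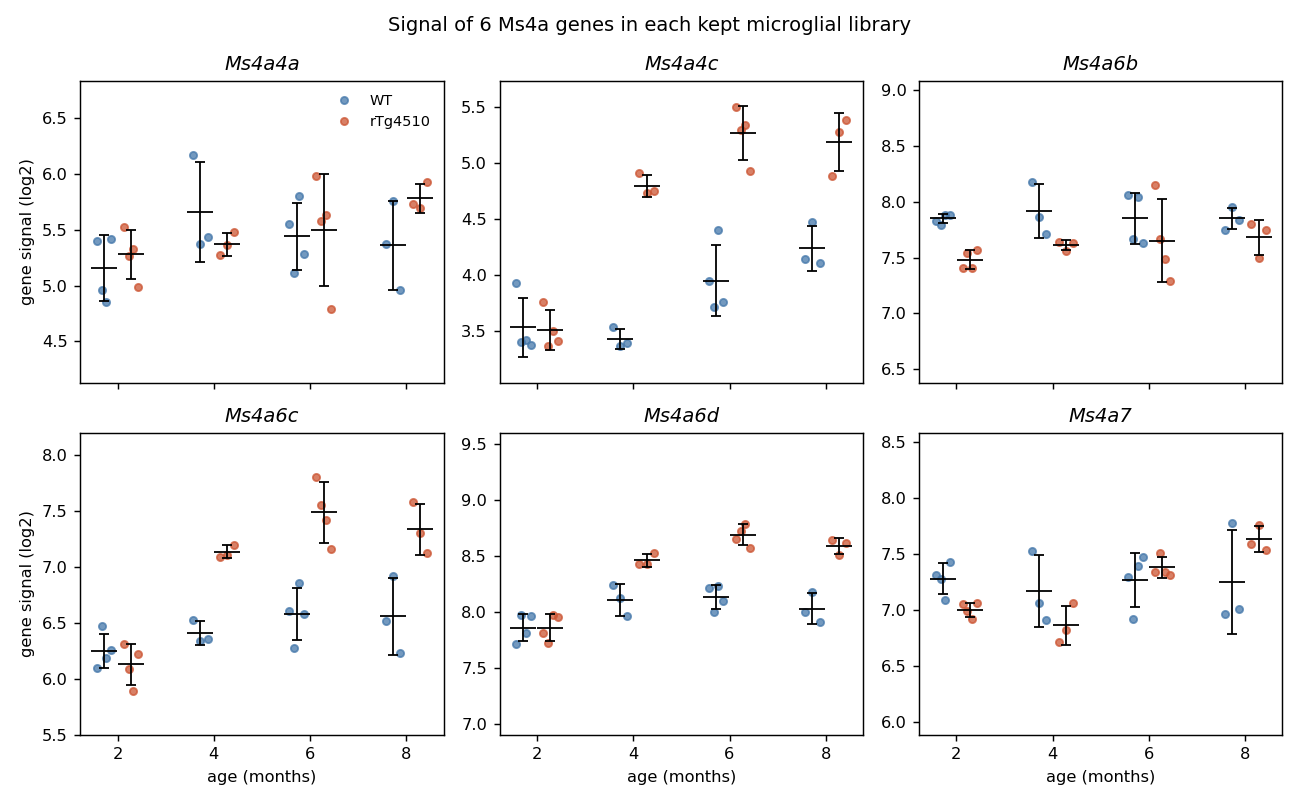
Log2 signal (vertical axis) of the 6 members against age in months (horizontal axis), with 1 point per library, WT in blue and rTg4510 in orange, and black bars for the group mean ± SD (n = 4 at 2 and 6 months, n = 3 at 4 and 8 months). For Ms4a4c, Ms4a6c and Ms4a6d the rTg4510 points at 4, 6 and 8 months all lie above the WT points of the same age.

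Ms4a4c showed the largest difference of the 6. In WT microglia its signals were 3.93, 3.4, 3.42 and 3.37 at 2 months, 3.53, 3.36 and 3.39 at 4 months, 3.95, 3.71, 4.4 and 3.76 at 6 months, and 4.14, 4.47 and 4.11 at 8 months. In rTg4510 microglia they were 3.76, 3.36, 3.5 and 3.41 at 2 months, 4.91, 4.73 and 4.75 at 4 months, 5.5, 5.3, 5.34 and 4.93 at 6 months, and 4.89, 5.28 and 5.39 at 8 months. Both genotypes overlapped at 2 months and were fully apart at the 3 later ages. The log2 fold changes from the youngest to the oldest age were -0.024 ± 0.161 (SE), 1.37 ± 0.186, 1.31 ± 0.161 and 0.95 ± 0.186. These are folds of 2.59, 2.49 and 1.93 at the 3 later ages, with limma FDR values of 8.5e-06, 1.27e-06 and 0.000502. In the order of the 8 group means, all 3 later rTg4510 groups stood above every WT group, and their own order (4, 8, 6 months) was within the spread, as neighbouring groups overlapped. The step between WT at 8 months and rTg4510 at 4 months was the only one between neighbouring groups whose libraries did not overlap. The mean signal of Ms4a4c falls below the 25th percentile of all genes. No group of it was near the floor of 3 counts as defined below, but WT lay little above it. The implied counts at 4 months were 3.5 to 4.61 in WT and 13.3 to 14.1 in rTg4510. The sizes of these folds are therefore uncertain.

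Ms4a6c was the second member called. Its WT signals were 6.1, 6.47, 6.19 and 6.26 at 2 months, 6.53, 6.34 and 6.36 at 4 months, 6.61, 6.28, 6.86 and 6.58 at 6 months, and 6.52, 6.92 and 6.23 at 8 months. Its rTg4510 signals were 6.31, 6.09, 5.89 and 6.22 at 2 months, 7.09, 7.11 and 7.2 at 4 months, 7.81, 7.56, 7.42 and 7.16 at 6 months, and 7.58, 7.31 and 7.13 at 8 months. As for Ms4a4c, the genotypes overlapped at 2 months and did not at 4, 6 and 8 months. The log2 fold change was -0.12 ± 0.152 (SE), 0.73 ± 0.176, 0.9 ± 0.152 and 0.78 ± 0.176 at 2, 4, 6 and 8 months. The folds were 1.65, 1.87 and 1.72 at the 3 later ages (limma FDR 0.00397, 7.46e-05 and 0.00184). When the 2 groups of 8 months were fitted on their own, neither Ms4a4c (FDR 0.0544) nor Ms4a6c (FDR 0.129) passed the test at that age.

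Ms4a6d followed the same course with a smaller difference and less spread. WT signals were 7.71, 7.97, 7.81 and 7.96 at 2 months, 8.24, 8.12 and 7.96 at 4 months, 8.21, 8, 8.23 and 8.1 at 6 months, and 8, 8.18 and 7.91 at 8 months. Those of rTg4510 were 7.81, 7.72, 7.97 and 7.95 at 2 months, 8.43, 8.43 and 8.53 at 4 months, 8.65, 8.72, 8.79 and 8.57 at 6 months, and 8.64, 8.51 and 8.62 at 8 months. At 2 months the genotypes could not be told apart, and at each later age every rTg4510 library was above every WT library. The log2 fold changes were -0.00087 ± 0.0784 (SE), 0.36 ± 0.0905, 0.55 ± 0.0784 and 0.56 ± 0.0905. The limma FDR was 0.00555, 8.85e-06 and 5.73e-05 at 4, 6 and 8 months, but the folds of 1.28, 1.47 and 1.48 stayed under 1.5, so Ms4a6d was not a DEG. It sat close to that line: without replicate 3 of WT or replicate 4 of rTg4510 at 6 months it was called, and likewise without replicate 2 of WT or of rTg4510 at 8 months.

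Ms4a7, which is more strongly expressed by macrophages at the borders of the brain than by microglia, was not called at any age. Its WT signals were 7.31, 7.28, 7.09 and 7.43 at 2 months, 7.53, 7.06 and 6.91 at 4 months, 7.29, 6.92, 7.39 and 7.47 at 6 months, and 6.96, 7.78 and 7.01 at 8 months. In rTg4510 they were 7.05, 6.99, 6.92 and 7.06 at 2 months, 6.71, 6.82 and 7.06 at 4 months, 7.34, 7.51, 7.34 and 7.31 at 6 months, and 7.59, 7.76 and 7.54 at 8 months. All 4 rTg4510 libraries lay below the WT libraries at 2 months, and at 8 months they lay above 2 WT libraries but below WT replicate 2. The log2 fold changes were -0.27 ± 0.158 (SE), -0.3 ± 0.182, 0.11 ± 0.158 and 0.38 ± 0.182 (limma FDR 0.426, 0.258, 0.642 and 0.142). WT replicate 2 at 8 months decided the last value. Without it the log2 fold change was 0.65 ± 0.158 (FDR 0.00458), which passed both thresholds, and 4 of the 6 members were then DEGs at 8 months.

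Ms4a6b was the one member with lower means in rTg4510 at every age. WT signals were 7.83, 7.79, 7.88 and 7.88 at 2 months, 8.18, 7.86 and 7.71 at 4 months, 8.06, 7.67, 8.04 and 7.63 at 6 months, and 7.75, 7.95 and 7.84 at 8 months. Those of rTg4510 were 7.41, 7.54, 7.41 and 7.57 at 2 months, 7.64, 7.56 and 7.63 at 4 months, 8.15, 7.67, 7.49 and 7.29 at 6 months, and 7.8, 7.5 and 7.75 at 8 months. Libraries of both genotypes did not overlap at 2 and 4 months and did overlap at 6 and 8 months. The log2 fold changes were -0.36 ± 0.14 (SE), -0.31 ± 0.162, -0.2 ± 0.14 and -0.16 ± 0.162, and none passed the test (limma FDR 0.166, 0.196, 0.297 and 0.512). At 8 months the 95% interval was -0.5 to 0.17, so a rise as large as the 0.78 of Ms4a6c lies outside it.

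Ms4a4a had the largest standard errors of the 6 members. WT signals were 5.4, 4.96, 4.85 and 5.42 at 2 months, 6.17, 5.37 and 5.43 at 4 months, 5.55, 5.11, 5.8 and 5.28 at 6 months, and 5.37, 5.76 and 4.96 at 8 months. Those of rTg4510 were 5.52, 5.26, 5.33 and 4.99 at 2 months, 5.27, 5.36 and 5.48 at 4 months, 5.98, 5.58, 5.63 and 4.79 at 6 months, and 5.73, 5.69 and 5.93 at 8 months. Both genotypes overlapped at all 4 ages, and each group overlapped with its neighbours in the order of the 8 means. The log2 fold changes were 0.12 ± 0.235 (SE), -0.29 ± 0.271, 0.059 ± 0.235 and 0.42 ± 0.271 (limma FDR 0.885, 0.499, 0.873 and 0.285). The 95% interval of -0.14 to 0.99 at 8 months leaves room for no difference and for a rise of nearly 2 fold.

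Counted over the family, libraries of the 2 genotypes did not overlap for 2 members at 2 months, 4 at 4 months, 3 at 6 months and 3 at 8 months. This was also true of 11.0%, 36.6%, 32.8% and 36.7% of all genes. The median log2 fold change of the 6 members was -0.074, 0.036, 0.33 and 0.49 at the 4 ages, beside 0.014, -0.037, -0.035 and -0.014 over all genes. For Ms4a4c at 4 months, 3.85% of all genes had a larger absolute change.

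**Figure D2:**
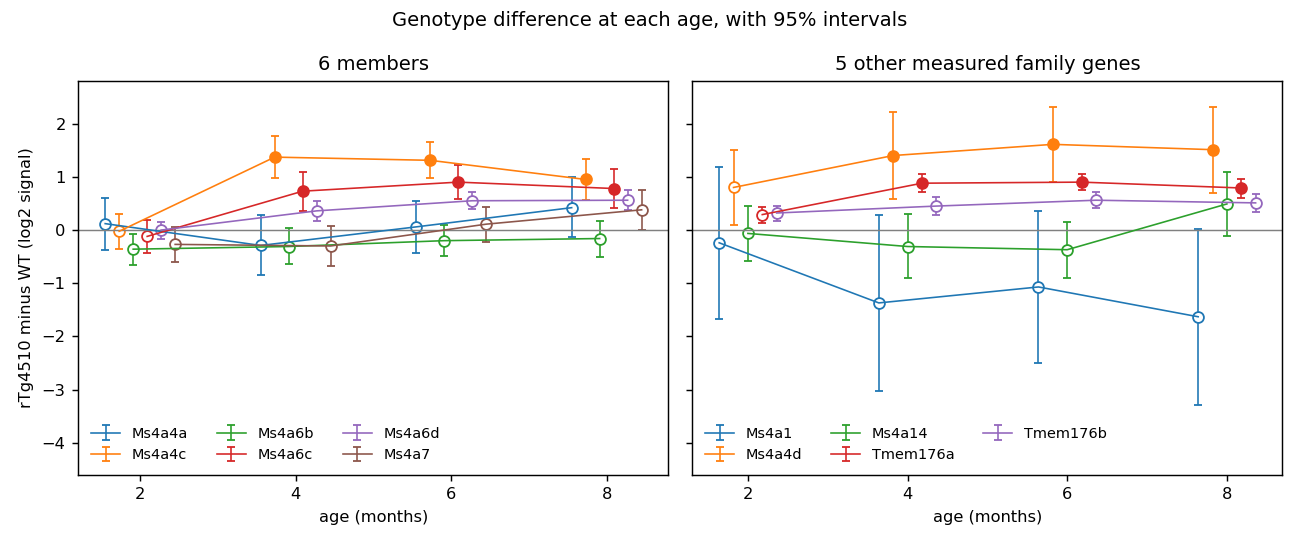
Log2 difference in signal between rTg4510 and WT (vertical axis) against age in months (horizontal axis) for the 6 members (left) and the 5 other measured genes of the family (right), with 95% intervals and filled circles where a gene was a DEG. Ms4a4c and Ms4a6c are filled at 4, 6 and 8 months, Ms4a6d lies above 0 at the same ages with smaller values and narrow intervals, and Ms4a6b stays below 0.

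The change of the genotype difference between ages was tested directly. From 2 to 4 months it grew for 2 members, by 1.39 ± 0.246 (SE) for Ms4a4c (limma FDR 0.00113) and by 0.85 ± 0.233 for Ms4a6c (FDR 0.0286), while 4.66% of all genes were called. Leaving out single libraries moved the FDR of Ms4a6c above 0.05 in 7 of 28 cases (WT replicate 2 and rTg4510 replicates 2 and 3 at 2 months, and replicates 2 and 4 of both genotypes at 4 months), with values up to 0.0715. With same-numbered libraries as a replicate block its FDR was 0.0601, and Ms4a6c was not called. Ms4a4c was called in all 28. From 4 to 6 months and from 6 to 8 months 0 members were called, beside 0.156% and 0.0% of all genes, and 0 had an unadjusted p under 0.05. The moderated fit called 0 in both steps as well. From 2 to 8 months the difference grew for Ms4a4c by 0.97 ± 0.246 (FDR 0.0132) and for Ms4a6c by 0.91 ± 0.233 (FDR 0.0143), beside 6.7% of all genes. Ms4a6d changed by 0.56 ± 0.12 (FDR 0.00384) over the same span, which is a fold of 1.48 and so under the limit. It passed the limit in 5 of 28 fits that left out a library (WT replicate 1 and rTg4510 replicates 3 and 4 at 2 months, and replicate 2 of both genotypes at 8 months). With the 28 libraries Ms4a7 changed by 0.65 ± 0.241 over this span (limma FDR 0.101) and was not called. Without WT replicate 2 at 8 months 4 members were called over this span, Ms4a6d and Ms4a7 (0.92 ± 0.2, FDR 0.00472) being added. The call of Ms4a6c was lost without WT replicate 3 (FDR 0.0563) or rTg4510 replicate 1 (FDR 0.0501) of that age. For Ms4a6b the value was 0.2 ± 0.214 (FDR 0.673).

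The ages were also compared within each genotype. Between 2 and 4 months Ms4a4c rose by 1.29 ± 0.174 (SE, limma FDR 2.52e-05), Ms4a6c by 1.01 ± 0.164 (FDR 0.000227) and Ms4a6d by 0.6 ± 0.0846 (FDR 4.12e-05) in rTg4510 microglia. These 3 members were called beside 6.39% of all genes. The call of Ms4a6d was lost with quantile normalization (0.51), without replicate 1 or 2 at 2 months or replicate 4 at 4 months, and with all 32 libraries, where its value was 0.091 (FDR 0.872). Between 2 and 8 months 4 members rose in rTg4510, beside 10.5% of all genes. The changes were 1.68 ± 0.174 for Ms4a4c (FDR 3.93e-07), 1.21 ± 0.164 for Ms4a6c (FDR 1.37e-05), 0.73 ± 0.0846 for Ms4a6d (FDR 2e-06) and 0.63 ± 0.171 for Ms4a7 (FDR 0.0109). With all 32 libraries Ms4a6d did not pass (0.61 ± 0.302, FDR 0.237). Without replicate 2 of rTg4510 at 8 months Ms4a7 no longer passed (0.56 ± 0.196, FDR 0.0586). In WT microglia 1 member was called between 2 and 8 months, Ms4a4c, with 0.71 ± 0.174 (FDR 0.0252), beside 1.27% of all genes. That call was lost on leaving out any of 5 WT libraries (replicates 2, 3 and 4 at 2 months, replicates 1 and 2 at 8 months), with FDR values of 0.0643 to 0.125. The changes of the other 5 members in WT over these 6 months were between -0.028 and 0.3 and were not called.

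Of 19 other names on the family list, 5 were measured. The other 14 were not analysed here. Ms4a4d was a DEG at 4, 6 and 8 months, with log2 fold changes of 1.4 ± 0.389 (SE), 1.61 ± 0.337 and 1.51 ± 0.389 (limma FDR 0.0112, 0.000762 and 0.00581). Its WT signals were 2.65, 1.43, 1.61 and 2.16 at 2 months, 2.72, 2.84 and 3.04 at 4 months, 1.81, 2.01, 2 and 2.65 at 6 months, and 2.8, 1.94 and 2.32 at 8 months. Its rTg4510 signals were 2.92, 2.17, 3.11 and 2.84, then 4.29, 4.57 and 3.95, then 4.32, 4.17, 3.68 and 2.73, and at 8 months 4.01, 4.29 and 3.28. The WT groups at 2, 6 and 8 months lay near the lowest signals of their libraries, so a fitted fold is no measure of size there. The call at 4 months was lost without rTg4510 replicate 2 (FDR 0.0516) and with all 32 libraries (FDR 0.236), and that at 8 months with these groups fitted alone (FDR 0.0928). Against a floor of 3 counts per library the rTg4510 mean was at least 1.39-fold higher at 6 months and at least 1.64-fold higher at 8 months.

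Tmem176a and Tmem176b, which encode relatives of the Ms4a proteins and lie next to each other on chromosome 6, were higher in rTg4510 microglia as well. Tmem176a was a DEG at 4, 6 and 8 months, with log2 fold changes of 0.88 ± 0.0832 (SE), 0.9 ± 0.072 and 0.79 ± 0.0832 (limma FDR 7.25e-08, 2.76e-09 and 2.37e-07), and its libraries of the 2 genotypes did not overlap at these ages. With quantile normalization the value at 8 months (0.54) was under the fold limit. Tmem176b passed the FDR at all 4 ages with folds of 1.24, 1.37, 1.47 and 1.42, under the limit. The 2 genes overlap in the RefSeq annotation, and whether reads were counted by strand is not given in the sources used here, so their signals may not be independent. Ms4a1 and Ms4a14 were not called at any age. The log2 fold change of Ms4a1 was -1.63 ± 0.792 at 8 months (FDR 0.146), with rTg4510 signals of 4.66, 1.49 and 3.91 beside WT signals of 4.24, 5.43 and 5.28.

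Neighbouring genes of the cluster were counted from a list of 17, of which 11 were measured. Of these 0, 3, 2 and 5 were higher DEGs at the 4 ages in turn and 0 were lower. At 6 months they were Stx3, a membrane fusion protein (1.54 ± 0.149, SE, limma FDR 4.28e-08), and Cd5, a lymphocyte receptor (1.14 ± 0.202, FDR 0.000133) that was near the floor in WT at 8 months. Of all genes, 9.47%, 11.3% and 10.5% were higher DEGs at 4, 6 and 8 months. DEGs in either direction were 1.98%, 13.8%, 19.8% and 15.9% at the 4 ages. The median log2 fold change over all genes was 0.014, -0.037, -0.035 and -0.014. Counts and medians of the lists below stand beside these same values.

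Genes that act beside the Ms4a proteins were then counted from a list of 16 receptors, adaptors and ligands, of which 15 were measured. This list holds Trem2, its adaptor Tyrobp, its ligand Apoe, and Fc receptors. At 2, 4, 6 and 8 months 1, 7, 7 and 6 of the 15 were DEGs, all higher in rTg4510, with median log2 fold changes of 0.042, 0.15, 0.27 and 0.2. Trem2 itself rose by 0.61 ± 0.0817 (SE, limma FDR 7.34e-06) at 4 months and by 0.65 ± 0.0708 (FDR 2.62e-07) at 6 months. At 8 months it was 0.58 ± 0.0817 (FDR 1.14e-05), just under the fold limit. Tyrobp rose by 1.31 ± 0.0676 (FDR 6.28e-12) and Apoe, a lipid carrier, by 3.6 ± 0.133 (FDR 4.31e-14) at 6 months. Other called genes of the list at 6 months were the receptors Clec7a (3.14) and Fcgr4 (2.07), the adaptor Hcst (1.31) and the Fc receptor gamma chain Fcer1g (0.69). The kinase Syk, which acts below Tyrobp, had a log2 fold change of -0.28 ± 0.0931 (FDR 0.0251) at 6 months and was not a DEG.

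Lists of microglial states were counted in the same way. Of 18 genes of disease-associated microglia, such as Cst7 and Lpl, 11, 18, 18 and 17 were higher DEGs at the 4 ages in turn, with median log2 fold changes of 0.79, 2.72, 3.01 and 3.05. At 6 months Cst7 rose by 4.88 and Lpl by 4.07. Of 18 interferon response genes 0, 6, 10 and 10 were higher DEGs, and the medians were 0.2, 0.53, 0.6 and 0.75. Ifi44 rose by 1 ± 0.165 (SE, limma FDR 6.03e-05) and Cxcl10, a chemokine, by 1.42 ± 0.4 (FDR 0.00872) at 6 months. The summed signal of the interferon list was 10.23 to 10.56 in WT and 10.76 to 11.1 in rTg4510 at 6 months.

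Markers of other cells that CD11b beads can collect were listed beside these results. Of 15 border macrophage markers 0, 4, 5 and 5 were lower DEGs at the 4 ages and 0 were higher, with median log2 fold changes of -0.27, -0.52, -0.41 and -0.48. None of the 15 was near the floor in any group. The transcription factor Maf (-0.92 ± 0.112, SE, limma FDR 1.26e-06) and the scavenger receptor Stab1 (-0.85 ± 0.107, FDR 1.92e-06), both of which microglia also express, fell most at 6 months. Among the other markers, Lyve1 fell by 0.84 (FDR 0.00542) at 6 months and passed at no other age. Cd209a was a lower DEG at 4 and 8 months (-0.88 and -0.66), and Cd209g at 6 and 8 months (-0.63 and -0.74). Lower DEGs at a single age were Cd209f at 6 months (-0.64), Clec10a at 4 months (-0.71) and Folr2 at 8 months (-0.7). Mrc1, the mannose receptor, was called at no age and had a log2 fold change of -0.19 at 8 months (FDR 0.521). Cd163 was not called either, with group means of 6.12, 6.18, 6.18 and 6.29 in WT and of 5.93, 5.87, 5.77 and 5.79 in rTg4510. The summed signal of the list was dominated by Maf, which made up 82.9% to 91% of it, so the sum is given for the other 14 genes. It was 11.52 to 11.62 in WT and 11.14 to 11.47 in rTg4510 at 2 months, and 11.2 to 11.96 and 10.84 to 11.09 at 4 months, without overlap. At 6 months (11.25 to 11.76 and 10.94 to 11.31) and at 8 months (11.28 to 12.03 and 11.15 to 11.39) the genotypes overlapped. The medians of these markers had the sign of the Ms4a6b values, and their part in those values was not tested. For Ms4a4c, Ms4a6c and Ms4a6d the sign was the opposite one at 4, 6 and 8 months.

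Monocyte markers were read beside Ms4a4c, a gene that is also expressed by blood monocytes. The summed signal of the 9 markers was 8.12 to 8.46 in WT and 7.58 to 7.72 in rTg4510 at 4 months. It was 8.19 to 8.27 and 7.67 to 8.5 at 6 months, and 8.2 to 8.69 and 8.47 to 8.78 at 8 months. None of the 9 was near the floor in any group. Ccr2, the chemokine receptor that marks inflammatory monocytes, fell by 1.05 ± 0.287 (SE, limma FDR 0.00998) at 4 months, and its means were 6.57 in WT and 6.78 in rTg4510 at 6 months. Of the 9 monocyte markers 0 were higher DEGs and 1 was a lower one at 4 months, 2 were higher and 5 lower at 6 months, and 1 was higher at 8 months. Those 2 higher genes at 6 months were Vcan (1.38) and Fn1 (1.13), which code for matrix proteins. Neutrophil markers were lower in rTg4510, with 11 of 13 lower DEGs at 6 months and 8 at 8 months, and a summed signal of 9.1 to 9.34 beside 9.92 to 10.92 in WT at 6 months, when Elane and Mpo were near the floor in rTg4510. Of 13 microglia markers 1, 4, 5 and 5 were lower DEGs and 0 higher. The part of these lists in the members' values was not tested.

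**Figure D3:**
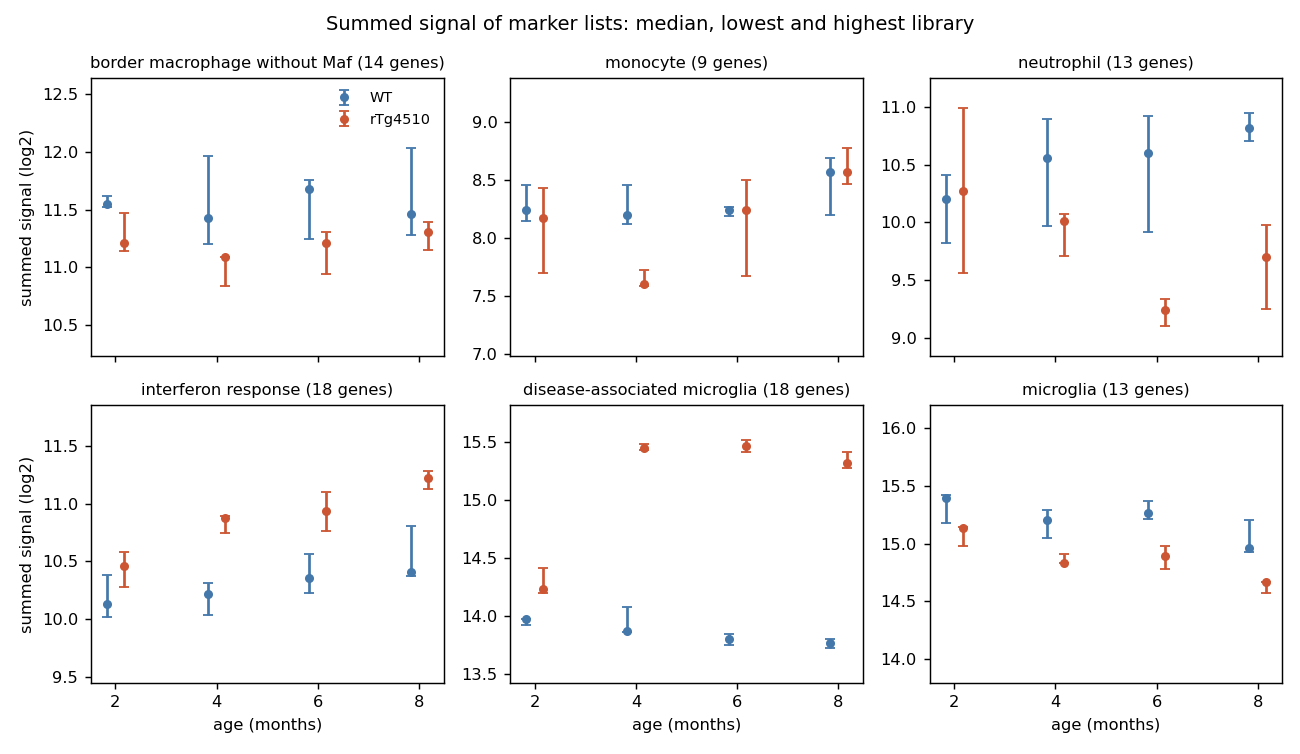
Summed signal (log2, vertical axis) of 6 marker lists, the border macrophage list without Maf, against age in months (horizontal axis), with a point at the median library and bars from the lowest to the highest library of each group, WT in blue and rTg4510 in orange. The border macrophage sums of rTg4510 lie below WT at 2 and 4 months and overlap with WT at 6 and 8 months, and the monocyte sums are lower at 4 months and overlap at 2, 6 and 8 months.

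Across the 28 libraries the members fell into pairs of very unequal likeness. These correlations are descriptions over libraries that share genotype, age and normalization. Pearson's r was 0.941 between Ms4a6c and Ms4a6d, 0.917 between Ms4a4c and Ms4a6c, and 0.883 between Ms4a4c and Ms4a6d. In the 14 rTg4510 libraries alone these were 0.936, 0.943 and 0.951, and in the 14 WT libraries 0.82, 0.601 and 0.272. Ms4a6b stood apart from these 3 genes, with r of -0.102 to Ms4a4c, 0.0307 to Ms4a6c and -0.0512 to Ms4a6d. Within rTg4510 libraries alone, however, r between Ms4a6b and Ms4a6c was 0.552, and within WT libraries 0.37.

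Outside the family, the 3 genes most like each member differed between members. The genes most like Ms4a4c were Lyz2, the lysozyme of macrophages (r = 0.95), Lilr4b, a leukocyte receptor (0.946), and Hcar2, a hydroxybutyrate and niacin receptor (0.945). For Ms4a6c they were Lilrb4a, a near copy of Lilr4b (0.932), the semaphorin receptor Plxnc1 (0.93) and Lyz2 (0.923). For Ms4a6d they were Dram2, a lysosomal membrane protein (0.951), the immune cell receptor ligand Cd48 (0.951) and B2m, the light chain of MHC class I (0.937). The genes most like Ms4a7 were Tgfbi, an extracellular matrix protein (0.832), the interferon-induced Ifitm2 (0.813) and Dab2, an endocytic adaptor on the border macrophage list (0.784). The genes most like Ms4a6b were the kinase Lmtk2 (0.753), the haemoglobin receptor and border macrophage marker Cd163 (0.732) and Tlr4, the receptor for lipopolysaccharide (0.695). Ms4a4a resembled the predicted genes Gm5123 (0.758) and Gm5755 (0.727) and the interferon-induced Oas2 (0.748). Lyz2, Lilr4b and Lilrb4a each have a near-identical copy, and how reads were split between copies is not given, so these names are uncertain.

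The Ms4a6 genes are close paralogs, so the likeness of their sequences was set beside that of their signals. Of the aligned coding bases (GENCODE vM21), 85.3% were identical between Ms4a6b and Ms4a6c, 81.3% between Ms4a6b and Ms4a6d and 79.1% between Ms4a6c and Ms4a6d. The other 12 pairs of members shared 59.4% to 68.3%. By this measure the pair with the highest identity had an r near 0 over the 28 libraries. Ms4a4c and Ms4a6c, with 59.8% identity, had an r of 0.917. With gapped columns counted, Ms4a6b and Ms4a6d were the closest pair (79.9%, r = -0.0512), and Ms4a6b and Ms4a6c shared 73.9%. The first 90 coding bases of the 3 genes, from the start codon, are shown as an example of how these paralogs differ. Capitals mark bases that differ from Ms4a6c at the same position, 18 in Ms4a6b and 12 in Ms4a6d. This order is the reverse of that over all aligned coding bases, where Ms4a6b was closer to Ms4a6c (85.3% beside 79.1%).
Ms4a6c: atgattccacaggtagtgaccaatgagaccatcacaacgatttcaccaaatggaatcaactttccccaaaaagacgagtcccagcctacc
Ms4a6b: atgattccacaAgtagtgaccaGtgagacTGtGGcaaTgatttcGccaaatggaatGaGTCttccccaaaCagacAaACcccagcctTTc
Ms4a6d: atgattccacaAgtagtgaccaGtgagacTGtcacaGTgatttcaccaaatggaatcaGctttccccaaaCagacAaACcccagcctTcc

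**Figure D4:**
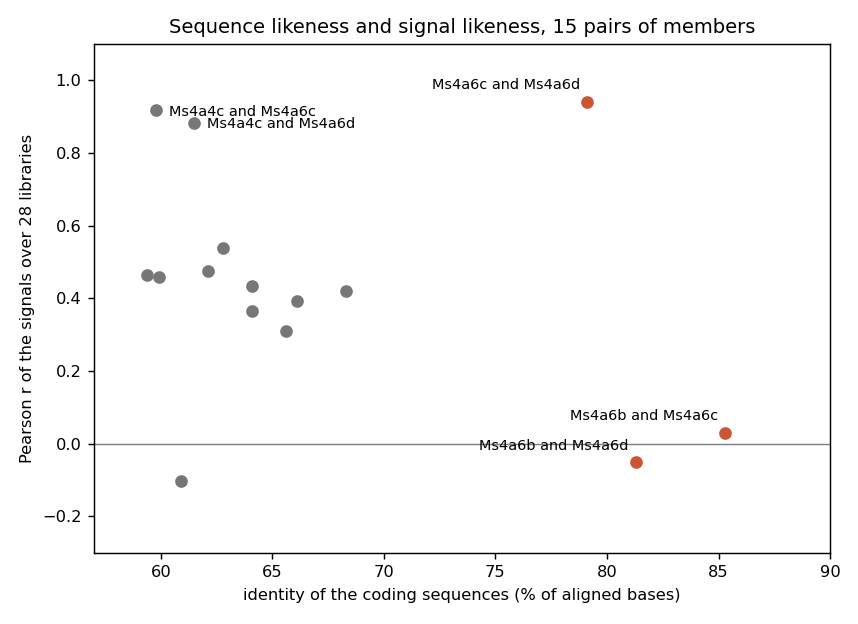
Pearson's r of the signals over 28 libraries (vertical axis) against the share of identical aligned coding bases in percent (horizontal axis), with 1 point per pair of members and the 3 pairs within the Ms4a6 group in orange. Ms4a6c and Ms4a6d lie at 79.1% and 0.941, whereas Ms4a6b and Ms4a6c lie at 85.3% and 0.0307.

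Whether short reads could be shared between such copies was checked on the transcripts with windows of 100 bases, the length of the reads. Of the windows in the transcript with the longest coding sequence of each member, 0.0% had an exact match in a transcript of another gene for Ms4a4a, Ms4a6b, Ms4a6d and Ms4a7. The share was 1.72% for Ms4a4c, with Ms4a4b as the other gene, and 0.574% for Ms4a6c. The longest run shared by Ms4a6b and Ms4a6c was 96 bases, and that of Ms4a6b and Ms4a6d was 81. Only exact matches over a whole window were counted, and the aligner is not given. Sharing of reads with mismatches was therefore not tested. The difference between Ms4a6c and Ms4a6b within a library, which no scaling of libraries can alter, was -1.65 to -1.35 log2 units in WT and -0.54 to -0.43 in rTg4510 at 4 months. At 6 months it was -1.45 to -1.05 in WT and -0.34 to -0.072 in rTg4510. At 8 months it was -1.61 to -1.03 and -0.62 to -0.19. At 2 months the ranges overlapped, with -1.73 to -1.33 in WT and -1.52 to -1.1 in rTg4510. A difference between genes within a library is a relative value, and only its shift between groups is described here.

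The likeness of Ms4a6b and Ms4a6c extended to the sequence before their start sites. RefSeq windows of 250 bases before to 50 bases after a start were at hand for 5 of the 6 members, with 2 windows for Ms4a7. Genes can have several starts, and for Ms4a6c and Ms4a4c the start of the window lies inside the gene span given above. The upstream bases of Ms4a6c and Ms4a6b aligned over 182 columns with 82.4% identity, on the plus strand, at chr19:11469193-11469366 and chr19:11518311-11518488 (GRCm38.p6). They are printed because one of these genes was called at 3 ages and the other at none. Capitals mark GAAANNGAA, the core of an interferon response element, and GGAAGT, a core bound by ETS factors such as PU.1.
Ms4a6c: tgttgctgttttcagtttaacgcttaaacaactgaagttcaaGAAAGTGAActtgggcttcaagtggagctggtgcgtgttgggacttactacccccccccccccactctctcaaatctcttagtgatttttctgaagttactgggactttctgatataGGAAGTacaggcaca
Ms4a6b: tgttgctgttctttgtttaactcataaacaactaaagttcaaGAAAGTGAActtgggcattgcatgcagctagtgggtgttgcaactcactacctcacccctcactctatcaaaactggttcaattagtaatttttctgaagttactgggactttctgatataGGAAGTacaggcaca

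Both stretches held the same pair of motifs with the same letters. Counted from the start of each window, the stretch ran from -175 to -2 in Ms4a6c and from -248 to -71 in Ms4a6b. GAAANNGAA began at -133 in Ms4a6c and at -206 in Ms4a6b, and GGAAGT began at -16 and at -85. Ms4a4c, the member with the largest change, held GGAAGT at -15 and no GAAANNGAA in its window. Its last 70 bases before the start (chr19:11407591-11407660, plus strand) are given for comparison, with GGAAGT in capitals.
Ms4a4c: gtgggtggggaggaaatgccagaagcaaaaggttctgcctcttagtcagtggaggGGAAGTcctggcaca

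In all, 9 motifs were searched on both strands, and each was matched exactly. GGAAGT was found in 4 of the 5 members with a window (Ms4a4c, Ms4a6b, Ms4a6c and Ms4a7) and in 23.8% of the 32851 windows of all genes. GAAANNGAA was found in 3 (Ms4a6b, Ms4a6c and Ms4a7) and in 8.56% of all windows. GGAANNGAA, a joint element of PU.1 and IRF factors, was found in Ms4a6c and in 8.24% of all windows, and that match overlaps one of GGAAGT after the start. The AP-1 site TGANTCA was found in Ms4a7 (7.81% of all windows), the M-box CATGTG in Ms4a4a and Ms4a7 (14.2%), and the Maf core TGCTGA in Ms4a4a (19.5%). The C/EBP site TTGCNNAA (10.8%), the E-box CACGTG (7.15%) and the STAT site TTCNNNGAA (8.3%) were found in none of the 5. Ms4a6b and Ms4a7, which were not called at any age, held GGAAGT and GAAANNGAA as Ms4a6c did. Any part of these motifs in the members' values was not tested. A match is a string of letters and not a bound site.

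**Figure D5:**
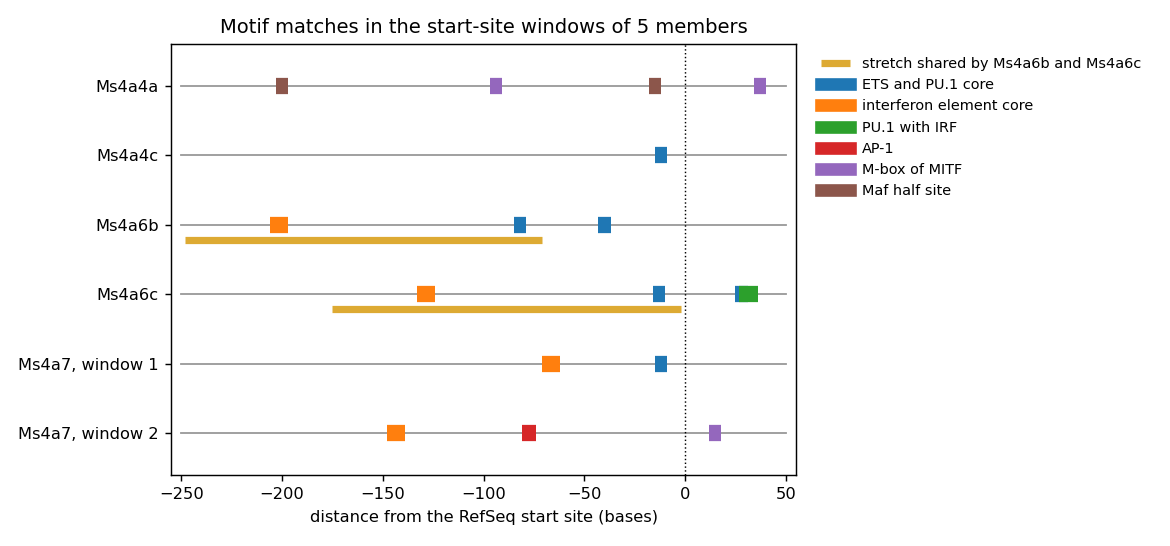
Motif matches (coloured blocks) in the windows of 5 members, against the distance in bases from the RefSeq start site (horizontal axis, negative before the start), with the stretch shared by Ms4a6b and Ms4a6c as a yellow bar. The interferon element core begins at -133 in Ms4a6c and at -206 in Ms4a6b, inside the shared stretch in both.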

How the data were processed

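Microglia RNA of 32 libraries (2 genotypes, 4 ages, 4 replicates) was sequenced. Group and replicate number were taken from each library's title, and the 28 libraries kept by the study from its methods. The values deposited by the authors are log2 gene signals: exon reads were summed, exons with low counts dropped, the exons of a gene combined with a robust linear model, and the log2 values median normalized. The labels name genome build GRCm38, and the aligner and annotation are not given in the sources used here. The methods of the study state paired-end reads of 100 bases and 1 approximate depth for all samples. No totals per library come with the signals, so no counting interval was computed. The number of libraries, 3 or 4 per group, limits the precision, and p-values measure the spread between pooled libraries. There were 0 unused columns of sample values.

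All 18588 genes were fitted with limma 3.58.1 in R 4.3.3 (group means, unmoderated variances, 20 residual degrees of freedom), and two-sided p-values were Benjamini-Hochberg adjusted within each contrast over all genes. The limits for a DEG were 0.05 for the FDR and 1.5 for the fold. Contrasts at one age share libraries with the changes between ages. In simulated data of 18588 genes for each age, the fit recovered 52.2% to 66.3% of 92 genes changed by 1 on the log2 scale. Of 108 genes changed by 2 it recovered 88% to 92.6%, with 0 wrong signs in both sets. Of the unchanged genes 3 to 9 were called at an age. The share of changed genes was smaller than the share called in the data at 4, 6 and 8 months, so recovery there can differ.

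Alternatives were moderated variances, a replicate block, the compared groups alone, all 32 libraries, quantile normalization, a filter below the 25th percentile of mean signal, a limit of 2 fold and leaving out each library. Same-numbered libraries of the 2 genotypes deviated together at 6 months (correlations 0.131 to 0.153) and 8 months (0.15 to 0.291), with every pair above 0.1. At 2 and 4 months not every pair was above 0.1, so the numbers were read as likely pairs at 6 and 8 months only. The main fit used no pairing at any age, and the replicate block joined same-numbered libraries at all 4 ages. The numbers come from the titles, and what they mark is not given.

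A group was called near the floor when every library lay within 3 counts of that library's lowest value, taking signals as log2 of a count plus 1.5, which is inferred: of 118519 low values, 29.3% lay on whole and 21.4% midway between steps within 0.003. Entrez identifiers were named through RefSeq (17828 of 18588). Named were all members, the measured relatives, the 3 genes outside the family with the highest Pearson correlation to each member over 28 libraries, and up to 4 genes per list with the largest called change at 6 months, besides genes on which a statement about a marker turns. Trem2, Tyrobp, Syk, Fcer1g, Lyve1, Mrc1, Ccr2, Cd163, P2ry12 and Tmem119 fall under the last clause or were named after their values were seen. Cd209a, Cd209g, Clec10a and Folr2 were named after their values were seen as well. Members and lists were chosen with earlier results of these data known. Coding sequences were aligned with Biopython 1.88 (global, for the start-site windows local). Summed signals of lists are the log2 of the sum of linear signals, and sums without the gene that leads each list were added after the values were seen. The within-library difference of Ms4a6c and Ms4a6b was added after the values were seen.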

Additional observations from a re-analysis of the deposited data

Results flagged for a closer look

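In the 24 groups of 4 libraries (6 members, 4 groups each), 1 library stood apart by Dixon's criterion, the Ms4a4c signal of WT replicate 1 at 2 months (3.93, beside 3.37 to 3.42 in the others). Its implied count above the lowest value of its library was 4.6, beside 4.39, 3.76 and 3.13 in the others. On that inferred scale it lay close to the next library. About 1 in 20 groups is picked out by chance.

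The genotype difference changed between ages by the interaction test for 2 members. From 2 to 4 months it grew by 1.39 for Ms4a4c and by 0.85 for Ms4a6c, and from 2 to 8 months by 0.97 and by 0.91.

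The libraries that the study left out entered only the values given for all 32 libraries. The excluded rTg4510 replicate 3 at 4 months had signals above every WT library of its age for Ms4a4c (6.17, the highest WT value being 3.53), Ms4a6c (6.65, beside 6.53) and Ms4a7 (7.79, beside 7.53). For Ms4a6d the same library was at 6.43, below the 8.43 to 8.53 of the rTg4510 libraries used at that age and below every WT library. The excluded rTg4510 replicate 4 at 8 months was above WT for Ms4a4c (5.32, beside 4.47) and Ms4a6c (7.21, beside 6.92). The excluded WT replicate 3 at 4 months lay below the WT libraries used at that age for Ms4a4a (4.29, beside 5.37 to 6.17), Ms4a4c (2.72, beside 3.36 to 3.53), Ms4a6b (7.56, beside 7.71 to 8.18), Ms4a6c (5.99, beside 6.34 to 6.53) and Ms4a6d (7.19, beside 7.96 to 8.24), and for Ms4a7 (6.92) it was within their range. The excluded WT replicate 4 at 8 months lay below the WT libraries used for Ms4a4c (3.65, beside 4.11 to 4.47), Ms4a6b (7.68, beside 7.75 to 7.95) and Ms4a6d (7.48, beside 7.91 to 8.18). It was within their range for Ms4a4a (4.97), Ms4a6c (6.35) and Ms4a7 (7.12).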

How the results depend on the processing

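Counts of members called at 2 months stayed at 0 in every alternative run. At 4 and 6 months the count of 2 fell to 1 with the low-signal filter, which removes Ms4a4c from the test, and to 1 with a 2-fold limit, under which Ms4a6c no longer counts. At 8 months the count of 2 fell to 0 with the 2 groups fitted alone, to 0 with a 2-fold limit and to 1 with the filter, and single libraries left out gave 2 to 4. For the growth of the difference from 2 to 4 months, the count of 2 fell to 1 with the replicate block, with the filter and with a 2-fold limit, and ranged from 1 to 2 on leaving out libraries. In the replicate block the FDR of Ms4a6c was 0.0601. At 2 months all 4 same-numbered pairs correlated positively (0.0649 to 0.167), 1 of them under 0.1, and at 4 months 1 of 3 did, so pairing at these ages is uncertain. Among differences between genotypes and their changes between ages, the block changed no other call of a member, and it was not fitted for ages within a genotype. From 2 to 8 months the count of 2 became 1 with the groups fitted alone, 1 with all 32 libraries (Ms4a4c lost, 1.15, FDR 0.0879), 1 with the filter and 0 with a 2-fold limit, and 1 to 4 on leaving out libraries. The 4 members called between 2 and 8 months in rTg4510 became 2 with a 2-fold limit, and with all 32 libraries Ms4a6d was lost (0.61, FDR 0.237). The 1 call in WT became 0 with the groups fitted alone, all 32 libraries, the filter and a 2-fold limit, and was 0 to 1 on leaving out libraries. The count of 3 from 2 to 4 months in rTg4510 was 2 to 3 on leaving out libraries.

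Signs turned for values that passed no test. With all 32 libraries Ms4a4a became 0.22 at 4 months, 0.1 for the change from 2 to 4 months and -0.16 from 4 to 6 months, Ms4a6b -0.032 from 2 to 4 months, Ms4a7 0.26, and from 2 to 4 months in rTg4510 Ms4a6b -0.052 and Ms4a7 0.09. With quantile normalization Ms4a6b became 0.064 and Ms4a7 0.013 from 2 to 8 months in WT. On leaving out libraries the ranges that crossed 0 were -0.11 to 0.11 (Ms4a4c) and -0.052 to 0.047 (Ms4a6d) at 2 months, and -0.1 to 0.29 (Ms4a4a) and -0.0092 to 0.17 (Ms4a7) at 6 months. For the change of the difference they were -0.045 to 0.19 (Ms4a6b) and -0.16 to 0.15 (Ms4a7) from 2 to 4 months, -0.14 to 0.093 (Ms4a4c) and -0.06 to 0.23 (Ms4a6b) from 4 to 6 months, and -0.087 to 0.2 (Ms4a6b), -0.28 to 0.06 (Ms4a6c) and -0.052 to 0.085 (Ms4a6d) from 6 to 8 months. Within genotypes they were -0.00017 to 0.18 (Ms4a4a, 2 to 4 months in rTg4510), -0.051 to 0.046 (Ms4a6b) and -0.3 to 0.12 (Ms4a7, both 2 to 8 months in WT). The cause was not tested. The genes most like a member depended on the libraries and on the measure: with Spearman's rho 0 of the 3 remained for Ms4a6c and 1 for Ms4a6b, and in the 14 rTg4510 libraries 0 of the 3 remained for Ms4a4a, Ms4a4c, Ms4a6b and Ms4a6c and 1 for Ms4a6d and Ms4a7. Leaving out the leading gene of a marker list, an alternative chosen after seeing the data, kept the sign of the difference in summed signal for the 6 lists plotted at all 4 ages. For the border macrophage list the differences of -0.42, -0.7, -0.85 and -0.8 became -0.3, -0.52, -0.43 and -0.31 without Maf.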

Other observations

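Markers of lymphocytes, mast cells and cells of the brain and its vessels were counted as well. Of 8 measured B cell markers 1, 1, 1 and 1 were higher and 0, 2, 2 and 1 lower DEGs in rTg4510 at 2, 4, 6 and 8 months. The higher gene at 6 months was Cd22 (3.14), a lectin that microglia also express. Of 9 T and NK cell markers 1 was higher at each age and 0, 2, 3 and 1 were lower. Of 8 oligodendrocyte markers 0 were DEGs at any age, and of 5 neuron markers 1 was lower at 6 months. Of 8 astrocyte markers 1 was higher at 6 months, Gfap (1.52 ± 0.301, SE, limma FDR 0.00043), and 2 were lower. Of 8 endothelial markers 1 was higher and 4 were lower at 6 months. Of 2 mast cell markers measured, 1 was lower at 6 months.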
